A study of Homo sapiens with 26 samples.

Results

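AKAP1, the scaffold protein of the outer mitochondrial membrane (OMM), was followed here together with the La-related proteins LARP4, LARP4B, LARP1, LARP1B and LARP7, the La protein SSB, the mitochondrial mRNA regulator CLUH and the cytoplasmic poly(A)-binding proteins PABPC1 and PABPC4. These 10 genes were chosen by name, with earlier results of these data known. They were found by their gene identifiers among 60663 genes of the RNA-seq tables and 57770 single-gene entries of the ribosome profiling tables. All samples were HEK293T cells, a human embryonic kidney line, in which the endogenous ribosomal protein RPL29 carried an Avi tag in a monoclonal line. A light-activated biotin ligase, LOV-BirA, biotinylated nearby ribosomes during 10 min of blue light, and streptavidin pulldown of those ribosomes was sequenced beside the total input of the same lysate.

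For ribosome profiling the ligase was fused to Sec61β for the ER, to GFP and the OMP25 transmembrane domain for the OMM, or left free in the cytosol, in stable polyclonal lines sorted by FACS. The Sec61β fusion was driven by the SFFV promoter and the other constructs by the EF1α promoter. Each location had 2 replicates of total input and pulldown, and cells received cycloheximide at 100 μg/mL before 50 μM biotin and light. For RNA-seq all lines carried the OMP25 ligase and were wild type (WT, a negative control guide RNA), AKAP1 null or LARP4 null, with 2 replicates each. The null lines were each 1 monoclonal Cas9 clone, and cycloheximide in the genotype comparison was taken from the study's general protocol. A further total input and pulldown without cycloheximide (noCHX) received light for 1 min and had no replicate, and its labels give neither genotype nor guide. Replicates were separate lysates, and nothing in the labels tied them to separate clones, so p-values measured the spread between lysates of 1 line.

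Coding-sequence footprints per library ranged from 1025114, in the first OMM pulldown, to 19539527, in the first ER pulldown. RNA-seq libraries held 38347615 to 100840544 counted reads. The HEK293T markers VIM and KRT18 were present in all 7 RNA-seq total inputs, at 85.3 to 133.7 and 13.5 to 18.2 RPKM, read counts scaled here to exon length in kilobases and to the library total. KRT8 and PAX2 were low, with medians of 1.09 and 1.06, and NEFM and NEFL had medians of 8.59 and 23.5. Of the markers of other cells, PTPRC, ALB and PECAM1 did not exceed 0.046, and COL1A1 reached 2.56.

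AKAP1 holds protein kinase A, phosphatases and messenger RNAs on the cytosolic face of mitochondria, through an anchor helix for the kinase and RNA-binding domains. La-related proteins share the La module, which binds RNA ends and structured RNA, and several of them act on poly(A) tails together with poly(A)-binding proteins. CLUH binds mRNAs of nuclear-encoded mitochondrial proteins in the cytosol, whereas LARP7 and SSB act mainly on noncoding RNAs made by RNA polymerase III.

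The sites that Cas9 was directed to are shown because they define the null lines, and they are written on the guide strand, 5′ to 3′, with the PAM in capitals. Both were read from GRCh38 at the codons the study's methods name for each guide.
AKAP1: acagacatgagattgcgaccAGG
LARP4: aacacttcaagaattagatcAGG
The AKAP1 site lies at chr17:57105807-57105829 on the plus strand, in coding sequence of exon 2 of 11 of the reference transcript, where the methods place it in the first exon, with 13.2% of the coding sequence before the cut. The LARP4 site lies at chr12:50435597-50435619 on the minus strand of this plus-strand gene, in exon 5 of 16, with 23.6% of the coding sequence before the cut. The AKAP1 gene spans chr17:57085092-57121346 and LARP4 spans chr12:50392383-50480004. RNA-seq reads from anywhere in either gene were counted, so the RNA level does not report protein. The study's methods say that the clones were screened by Western blot for loss of the AKAP1 and LARP4 proteins, which was not analysed here.

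The first question was whether the targeted genes and their paralogs changed in level in the null lines. AKAP1 stood at 21.4 and 22.4 RPKM in the WT total inputs, at 6.02 and 3.81 in AKAP1 null cells and at 22.6 and 26.6 in LARP4 null cells. The AKAP1 null values rested on 1587 and 850 reads and lay below those of every other RNA-seq total input, including 16.2 in the noCHX sample. The fitted difference of AKAP1 in total input was −2.15 on the log2 scale (SE 0.22, 95% interval −2.68 to −1.63, n = 2 against 2). Its unadjusted p by the edgeR quasi-likelihood test was 3.47e-05 and its adjusted p over 13977 genes was 0.243, so it was not called at the threshold of 0.05 used throughout. By DESeq2 the same difference had an adjusted p of 2.99e-17. In bulk lysates fewer cells with a transcript and less transcript per cell cannot be told apart.

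LARP4 stood at 27.7 and 28.5 RPKM in WT, at 9.78 and 9.12 in LARP4 null cells and at 26.6 and 30.5 in AKAP1 null cells. The LARP4 null values lay below all others, and LARP4 fell by 1.56 on the log2 scale in total input (SE 0.12, interval −1.84 to −1.28, edgeR adjusted p = 0.0405). It was the 1 member called of 10 in that comparison and the gene edited in this line. It was also the 1 gene called lower of 13977, so the share of 0.00715% over all genes is LARP4 itself. The call was lost when any 1 of the 4 total inputs was left out. DESeq2 called 28 genes in that comparison, 14 higher and 14 lower, of which LARP4 was the single member. The only other gene called by edgeR was IRAK1BP1, named after its values were seen. It had 2 and 4 counts in WT and 105 to 299 in the other 5 total inputs. The noCHX total input, at 217, was among these and thus unlike the WT libraries for this gene.

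No paralog of LARP4 or of AKAP1's RNA-binding partners was called in total input of either null line by edgeR. In AKAP1 null cells 0 of 10 members and 0% of all genes were called, with 489 of 13977 genes at an unadjusted p under 0.05, and DESeq2 called 15 genes, of which AKAP1 was the single member. AKAP1 was also the only member there at an unadjusted p under 0.05. LARP4B, the closest paralog of LARP4 and likewise a binder of poly(A)-binding protein, stood at 15.8 and 16.5 RPKM in WT and at 15.5 and 17.6 in LARP4 null cells. Its difference in LARP4 null total input was 0.05 on the log2 scale with an interval of −0.22 to 0.32. Its AKAP1 null values were 15.7 and 15.8, with a difference of −0.03 (interval −0.30 to 0.24).

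LARP1, which holds mRNAs with 5′ terminal oligopyrimidine tracts under mTORC1 control, averaged 80.3 ± 10.05 RPKM in WT, 77.3 ± 1.09 in AKAP1 null and 84.1 ± 11.5 in LARP4 null cells (SD, n = 2 each). Its difference in LARP4 null total input was 0.08 (interval −0.29 to 0.45). Its paralog LARP1B, the least abundant member in WT and LARP4 null cells, averaged 7.20 ± 0.13, 7.05 ± 0.17 and 7.56 ± 0.58 in the same order. LARP7, the partner of the 7SK small nuclear RNA, averaged 26.0 ± 0.56, 28.0 ± 1.52 and 26.1 ± 0.20. The genotypes of LARP1 and LARP1B overlapped, LARP7 in AKAP1 null cells (26.9 and 29.0) lay above WT (25.6 and 26.4), and no difference of these 3 genes passed the test.

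SSB, which binds the 3′ ends of RNA polymerase III transcripts, was at 85.0 and 85.3 RPKM in WT, at 94.5 and 99.97 in AKAP1 null cells and at 98.3 and 89.3 in LARP4 null cells. Both null lines lay above WT without overlap, but the differences of 0.20 (interval −0.05 to 0.45) and 0.16 (interval −0.09 to 0.41) did not pass the test. CLUH averaged 16.5 ± 0.81 in WT, 14.7 ± 3.33 in AKAP1 null and 16.8 ± 0.03 in LARP4 null cells, and it stood at 7.45 in the single noCHX total input. PABPC1 averaged 139.7 ± 18.96, 137.5 ± 10.4 and 147.9 ± 1.30, and PABPC4 averaged 23.0 ± 1.62, 24.3 ± 1.59 and 23.1 ± 0.59, in the order WT, AKAP1 null and LARP4 null. The intervals of the members other than AKAP1 and LARP4 thus bounded each change at a log2 difference between −0.54 and 0.45.

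**Figure D1:**
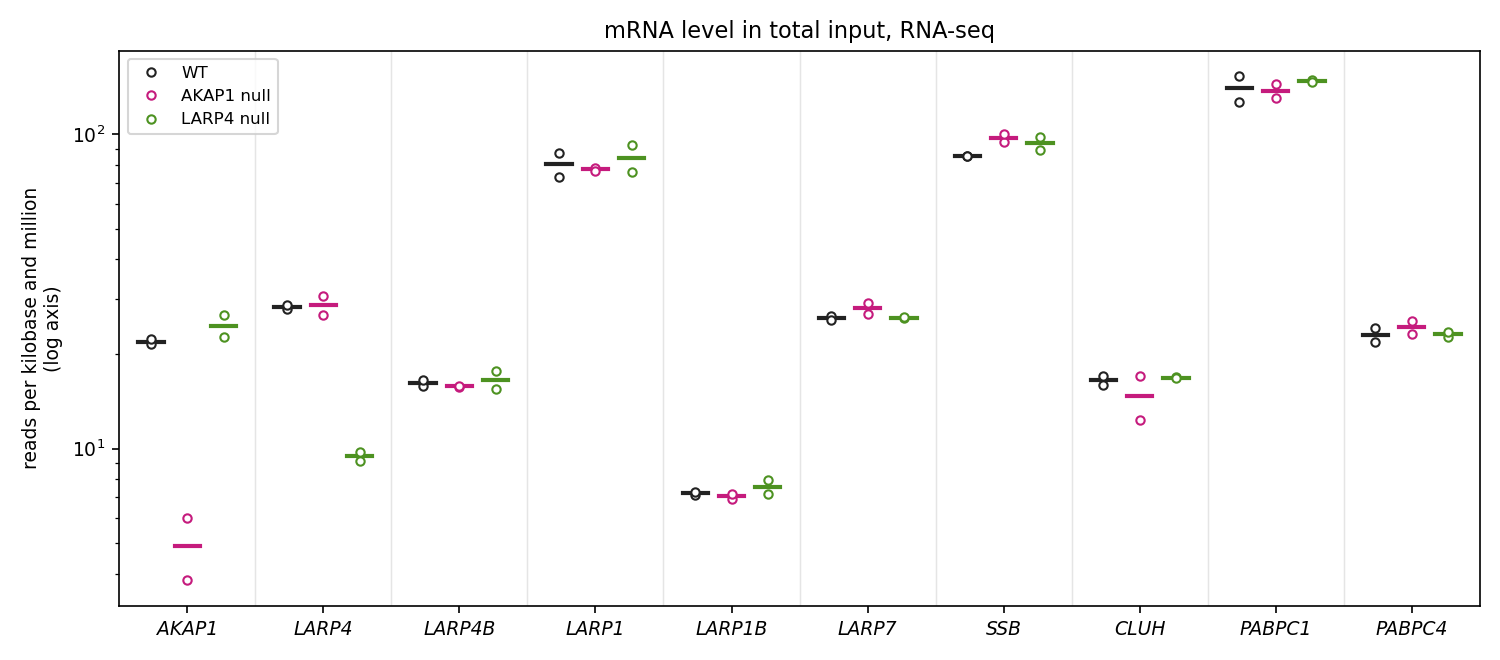
Level of each member in the RNA-seq total inputs, in RPKM on a log axis, with 1 point per library by genotype. The AKAP1 null points of AKAP1 (6.02 and 3.81) and the LARP4 null points of LARP4 (9.78 and 9.12) sit below their WT points (21.4 and 22.4, and 27.7 and 28.5), while the other members' genotypes lie close together.

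The remaining genes of these pathways were described from named lists. In AKAP1 null total input no gene was called in the LARP family list (7 tested, median difference −0.03), among the other anchoring proteins of the AKAP family (14 tested with AKAP1, median −0.05), among AKAP1's binding partners (11 tested, median 0.02) or among poly(A)-binding proteins and their partners (9 tested, median 0.04). Likewise 0 of 16 deadenylase genes, 0 of 6 7SK partners of LARP7 and 0 of 13 other RNA-binding proteins were called. In LARP4 null total input LARP4 was the only gene called in any of these lists. The median over all genes tested was 0.00 in both comparisons. In simulated total inputs of AKAP1 null and WT cells the edgeR fit recovered 50% of genes given a 2-fold change and 89% given a 4-fold change.

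By ribosome profiling the members differed widely in the density of footprints in total input. Over the 6 total inputs of the 3 ligase lines, SSB was highest at 511 ± 154 RPKM (SD, n = 6), followed by PABPC1 at 222 ± 49.0 and PABPC4 at 89.3 ± 16.5. LARP4 at 55.4 ± 15.7 and LARP1 at 44.9 ± 6.50 came next and their ranges overlapped. LARP4B at 34.6 ± 3.39 and LARP7 at 33.3 ± 7.04 could not be ordered, and neither could CLUH at 23.3 ± 6.62 and AKAP1 at 21.6 ± 5.46. LARP1B had the lowest mean, at 12.5 ± 2.08 RPKM. Its highest library, at 15.1, lay below the lowest of AKAP1, at 16.4, but above the lowest of CLUH, at 13.9. The deposited lengths behind these densities were short for some members, against 3 nucleotides per amino acid. There were 279 counted coding nucleotides for SSB, 106 for PABPC1, 307 for LARP7, 643 for LARP4 and 641 for PABPC4. Their proteins have 408, 636, 582, 724 and 660 amino acids. AKAP1, with 1691 for 903 amino acids, and LARP1B, with 1946 for 914, fell short by less. The order of the levels is therefore uncertain for all of these genes.

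Enrichment was then computed for each lysate as log2 of pulldown over total input. AKAP1 footprints had a log2 enrichment of 2.22 and 2.36 in the OMM lysates, 2.21 and 1.98 in the ER lysates, and 0.33 and 0.16 in the cytosol lysates, as ratios of RPKM. AKAP1 was thus high at both membranes and near the gene median of 0.24 and 0.25 in the cytosol. It ranked above 99.3% and 99.5% of genes at the OMM, above 89.1% and 89.5% at the ER, and above 64.5% and 37.7% in the cytosol. These values rested on 881.5 AKAP1 footprints in the first ER total input and 4816.1 in its pulldown.

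In the fit across all genes, which scales to coding-sequence totals, AKAP1 was enriched by 2.31 on the log2 scale at the OMM (SE 0.11, edgeR adjusted p = 5.75e-11) and by 1.81 at the ER (SE 0.10, adjusted p = 2.62e-11). In the cytosol its fitted log2 enrichment was 0.02 (SE 0.10, adjusted p = 0.948). The difference between the OMM and the cytosol was 2.29 and that between the ER and the cytosol was 1.80, both larger than the replicate spread. AKAP1 was the 1 member enriched at the OMM, where 17.0% of genes were called higher, and the 1 member enriched at the ER, where 19.8% were.

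AKAP1 enrichment at the ER was lower than at the OMM by −0.49 on the log2 scale (SE 0.14, edgeR adjusted p = 0.00787). That call depended on the scale. It was −0.24 for AKAP1 under TMM normalization (adjusted p = 0.203) and −0.19 on the totals behind the deposited RPKM (adjusted p = 0.386), the last chosen after seeing the data. Deposited RPKM values are relative to all mapped reads, and that scale raised the pulldown ratio over the coding-sequence scale by 0.37 and 0.20 on the log2 scale in the ER lysates against −0.03 and −0.01 in the OMM lysates.

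**Figure D2:**
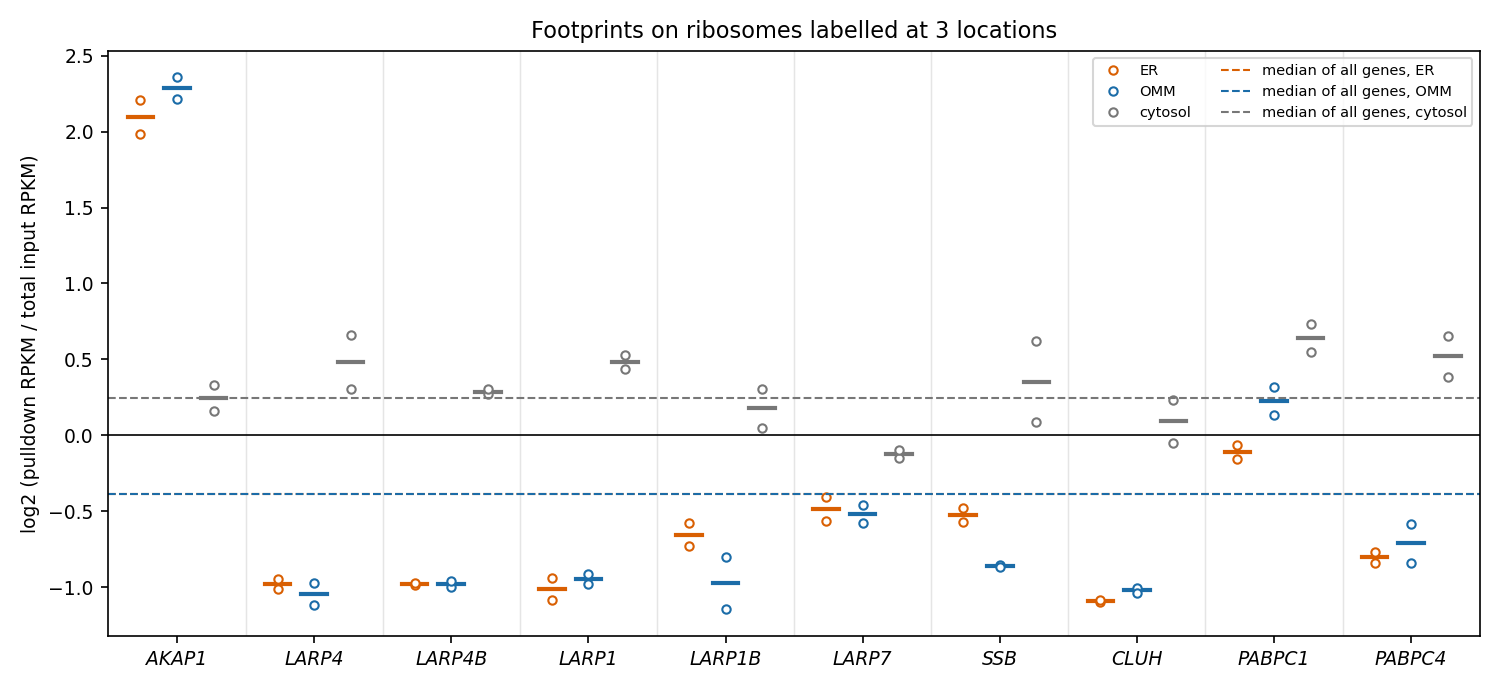
Log2 ratio of pulldown to total input RPKM of each member by ribosome profiling, with 1 point per lysate for the ER, OMM and cytosol ligases, and lines at the median of all genes tested. AKAP1 lies between 1.98 and 2.36 at both membranes, whereas the other members lie between −1.14 and 0.32 there and between −0.15 and 0.73 in the cytosol.

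All 5 La-related genes among the 10 had a lower footprint RPKM in the membrane pulldowns than in total input. LARP4 had a log2 enrichment of −1.12 and −0.97 at the OMM, −1.01 and −0.95 at the ER, and 0.31 and 0.66 in the cytosol. LARP4B (chr10:806933-931821) stood close to it, at −0.998 and −0.96, then −0.99 and −0.97, then 0.27 and 0.31. Both paralogs fell in the lowest 15% of genes in each of the 4 membrane lysates, which set them apart from the gene medians of −0.33 to −0.44 on the same RPKM scale.

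LARP1 (chr5:154682986-154817605) stood at −0.91 and −0.98 at the OMM, −0.94 and −1.09 at the ER, and 0.53 and 0.44 in the cytosol. LARP1B (chr4:128061286-128222931) varied more between replicates, at −0.80 and −1.14 at the OMM, −0.73 and −0.58 at the ER, and 0.05 and 0.30 in the cytosol. LARP7 (chr4:112637077-112657696) stayed near the gene medians at the membranes, at −0.46 and −0.58 for the OMM and −0.41 and −0.56 for the ER. On the RPKM scale LARP7 was the only member below zero in both cytosol lysates, at −0.15 and −0.10, where it ranked above 11.5% and 15.1% of genes. On the CPM scale CLUH was also below zero in both, at −0.001 and −0.28.

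SSB (chr2:169791933-169812064) stood at −0.86 and −0.87 at the OMM and −0.57 and −0.48 at the ER, and its cytosol values of 0.09 and 0.62 disagreed. CLUH (chr17:2689386-2712663) stood at −1.004 and −1.04 at the OMM, −1.10 and −1.08 at the ER, and 0.24 and −0.05 in the cytosol. At the ER CLUH ranked above 4.3% and 6.1% of genes, the lowest mean rank there among the 10 members. At the OMM CLUH ranked above 14.5% and 8.9%.

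Among the poly(A)-binding proteins, PABPC1, on chromosome 8, was the one member besides AKAP1 above the gene median at both membranes. Its log2 enrichment was 0.32 and 0.13 at the OMM, −0.16 and −0.06 at the ER, and 0.73 and 0.55 in the cytosol. All PABPC1 footprint values rest on 106 counted coding nucleotides for 636 amino acids, so they need not hold for its whole coding sequence. PABPC4 (chr1:39560709-39576790), a paralog that also binds poly(A), stood at −0.58 and −0.84 at the OMM, −0.77 and −0.84 at the ER, and 0.39 and 0.66 in the cytosol. Reads that map to more than 1 place were removed by the authors, so levels of these paralogs are uncertain where their sequences are near-identical to one another or to pseudogenes.

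In the fit, 7 of 10 members were depleted at the OMM by ribosome profiling, against 46.1% of all genes. These were LARP4 (−1.02), LARP4B (−0.95), LARP1 (−0.93), LARP1B (−1.01), SSB (−0.85), CLUH (−1.002) and PABPC4 (−0.71), beside a median of −0.38 over all genes. LARP7 (−0.53, adjusted p = 0.0653) and PABPC1 (0.24, adjusted p = 0.177) did not pass. Without the replicate block LARP1B, SSB and PABPC4 lost the OMM call, and 1022 of 6728 genes were called lower in place of 3101. LARP1B also lost it without the second OMM lysate. At the ER all 9 members other than AKAP1 were depleted, where 72.1% of genes were called lower and the median was −0.68. Their fitted log2 enrichment ran from −0.41 for PABPC1 to −1.38 for CLUH.

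Because most genes were depleted on this scale, the TMM scaling was set beside it. Of 7381 genes at the ER, 1465 were called higher and 5321 lower on coding-sequence totals, but 2190 higher and 1800 lower under TMM. Of 6728 genes at the OMM, the same counts were 1145 and 3101, then 1814 and 1477. LARP4, LARP4B, LARP1, CLUH and PABPC4 were called lower at both membranes under either scaling, but by DESeq2 PABPC4 was not called at the OMM (−0.34, adjusted p = 0.0718). LARP1B, LARP7 and SSB lost their calls at the ER under TMM, and PABPC1 turned from −0.41 to 0.25 there (adjusted p = 0.0899) and was called higher at the OMM (0.59, adjusted p = 0.00444).

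In the cytosol PABPC1 was the 1 member called, at 0.42 on the log2 scale (SE 0.12, edgeR adjusted p = 0.0465), where 2.02% of genes were called higher. The PABPC1 call was kept under TMM, but it was lost by DESeq2 (adjusted p = 0.0921), without the replicate block, and without the first cytosol lysate (0.32, adjusted p = 0.231), where SSB was called instead. On the totals behind the deposited RPKM, where LARP4, LARP4B, LARP1, SSB and PABPC4 were also called higher, so were 2412 of 7162 genes, and the median over all genes was 0.255 in place of 0.022. Tested against the cytosol directly, 7 members were lower at the OMM, against 40.0% of genes, and AKAP1 was higher, against 16.5%. LARP4 was lower by −1.24, LARP1 by −1.18 and CLUH by −0.87, and LARP7 (−0.16, adjusted p = 0.634) and PABPC1 (−0.18, adjusted p = 0.455) did not pass. Under TMM the same 8 members were called for the OMM against the cytosol. All genes then split into 1672 higher and 1222 lower in place of 1069 and 2583. Without the replicate block only AKAP1 kept its call for the OMM against the cytosol, and by DESeq2 LARP1B lost its call. Calls over all 6465 genes fell as well without the block, to 202 higher and 54 lower.

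Against the cytosol 8 members were lower at the ER, where 63.0% of genes were, and AKAP1 was higher, where 19.6% were. The ER differences reached −1.55 for LARP1 and −1.49 for LARP4, and LARP7 (−0.40, adjusted p = 0.0734) was the member that did not pass. Under TMM LARP1B, SSB and PABPC1 lost this call, which left 6 members called in place of 9, and all genes split into 1927 higher and 1480 lower in place of 1337 and 4290. Between the membranes, LARP1 (−0.37, adjusted p = 0.0322) and PABPC1 (−0.65, adjusted p = 0.0123) were lower at the ER than at the OMM together with AKAP1, against 31.2% of genes called lower. Under TMM none of the 3 was called, and all genes split into 1425 higher and 1061 lower in place of 1241 and 2084. The first cytosol total input was sequenced in 1 run with the first ER libraries and the first cytosol pulldown in another with the first OMM libraries. The second ER and OMM libraries shared a further run and the second cytosol libraries had their own. Location and run therefore overlapped in part, and the part of sequencing run in these differences was not tested.

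AKAP1 footprints in the region deposited as its 5′ UTR behaved differently from those in its counted coding sequence. This region has 1503 counted nucleotides beside 1691 for the coding sequence, which is short for 903 amino acids. Whether the region holds sequence that is coding in some transcripts was not tested. In the 5′ UTR of AKAP1, which held 153.1 footprints in the first ER total input and 45.2 in the first OMM total input, the log2 enrichment on the CPM scale was −0.50 and −0.22 at the OMM, against 2.25 and 2.37 in the coding sequence. At the ER it was −0.999 and −0.50, against 1.84 and 1.79. The 5′ UTR of AKAP1 was thus below its coding sequence by −2.75 and −2.58 at the OMM and by −2.84 and −2.28 at the ER.

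The comparison with other genes used those whose 5′ UTR held 32 or more footprints in total input, a minimum that was set, and once lowered, after seeing the data. Of these, 2.2% and 1.9% had a lower difference than AKAP1 at the OMM, and 4.6% and 8.4% did at the ER. Because the coding-sequence value is subtracted, the high coding-sequence enrichment of AKAP1 lowers this difference by itself. Genes of like coding-sequence enrichment were not compared separately, so these shares do not single out the 5′ UTR. With a minimum of 64, which the AKAP1 5′ UTR itself missed in 3 of the 6 total inputs, the shares were 1.4% and 1.5% at the OMM and 3.9% and 7.0% at the ER. The gene medians of this difference were −0.23 and −0.28 at the OMM and −0.72 and −0.69 at the ER. In the cytosol the AKAP1 5′ UTR stood at −1.31 and −1.49, lower than at either membrane, and its difference from the coding sequence was −1.41 and −1.42, beside gene medians of −1.03 and −1.59. The OMM values are imprecise, because the pulldowns held 6.0 and 28.4 footprints in this 5′ UTR. No test was made of these differences.

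**Figure D3:**
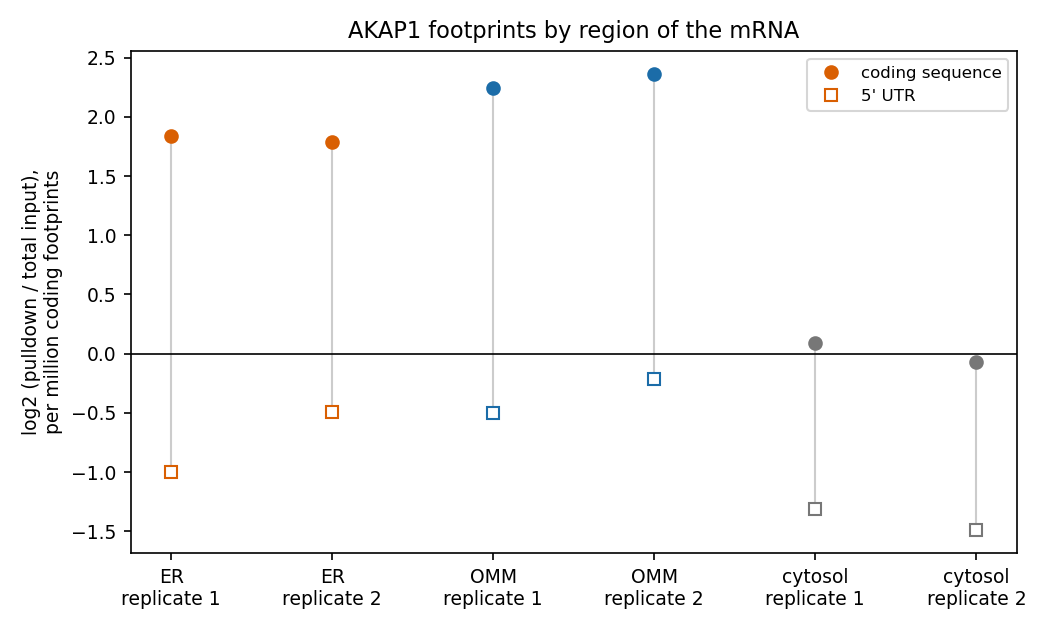
Log2 ratio of pulldown to total input, on the CPM scale, for footprints in the AKAP1 5′ UTR and in its coding sequence, with 1 point per lysate. At the OMM and the ER the coding sequence lies between 1.79 and 2.37 and the 5′ UTR between −0.999 and −0.22, whereas in the cytosol the coding sequence lies at 0.09 and −0.07 and the 5′ UTR at −1.31 and −1.49.

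RNA-seq of the OMM pulldown measured the mRNAs held by labelled ribosomes. In WT the log2 enrichment of AKAP1 was 0.34 and 0.60, from CPM with 0.5 counts added, and in the noCHX sample it was 0.65. AKAP1 mRNA ranked above 80.2% and 86.9% of genes in WT and above 84.4% without cycloheximide. In LARP4 null cells AKAP1 enrichment was 0.59 and 1.13, and in AKAP1 null cells the transcripts that remained were at −0.51 and −0.60. The AKAP1 null lysates were the only ones in which AKAP1 lay below the gene median, above 20.5% and 19.0% of genes.

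In the fit AKAP1 was enriched by 0.47 in WT (SE 0.13, edgeR adjusted p = 0.0136) and by 0.86 in LARP4 null cells (SE 0.13, adjusted p = 0.00111), and depleted by −0.55 in AKAP1 null cells (SE 0.14, adjusted p = 0.0146). The WT call of AKAP1 was lost without the second WT lysate (0.34, adjusted p = 0.220), and the AKAP1 null call was lost without the first (adjusted p = 0.125) or the second AKAP1 null lysate (adjusted p = 0.174). Without the replicate block none of the 3 was called, with adjusted p of 0.246 in WT, 0.0600 in LARP4 null and 0.288 in AKAP1 null cells. AKAP1 enrichment fell by 1.02 on the log2 scale in AKAP1 null cells relative to WT (SE 0.19, interval −1.46 to −0.58, adjusted p = 0.0110). It was the 1 member of 10 called lower, against 7.96% of genes, and no member was called higher, against 6.52%. AKAP1 is the gene edited in this line, so its call concerns the transcripts left after editing, and no unedited member was called. The change kept its direction without any 1 of the WT and AKAP1 null lysates, between −1.15 and −0.89, but the adjusted p was then between 0.0538 and 0.146. The calls over all genes fell likewise, from 903 higher and 1103 lower to between 121 and 208 higher and between 359 and 536 lower with any 1 of these lysates left out, and to 98 and 331 without the replicate block, so these background shares hold for the full set of lysates only.

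LARP4 mRNA stood at −0.17 and −0.29 in the WT lysates, −0.21 and −0.46 in AKAP1 null, −0.98 and −0.99 in LARP4 null cells and −0.52 without cycloheximide. The LARP4 null lysates lay below all others, at the rank of 10.5% and 3.4% of genes. The change of LARP4 enrichment in LARP4 null cells was −0.76 (interval −1.06 to −0.45, unadjusted p = 0.0004, edgeR adjusted p = 0.160) and was not called. The change of LARP4 enrichment in AKAP1 null cells was −0.10 (interval −0.41 to 0.20).

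No gene at all was called for a change of OMM enrichment in LARP4 null cells by edgeR, 0% of 13856, although 2270 had an unadjusted p under 0.05 and DESeq2 called 495, of which LARP4 was the single member. This count changed with each LARP4 null lysate left out. Without the first LARP4 null lysate 5659 genes were called, among them AKAP1 (0.66, adjusted p = 0.000285), LARP4 (−0.76, adjusted p = 0.00012), LARP7 and CLUH, with 1 lysate assumed to vary like those of the other lines. Without the second, 96 genes were called, with LARP4 the only member (−0.75, adjusted p = 0.0134) and AKAP1 at 0.12. With both lysates the AKAP1 change was 0.39 (interval −0.04 to 0.82, adjusted p = 0.307).

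**Figure D4:**
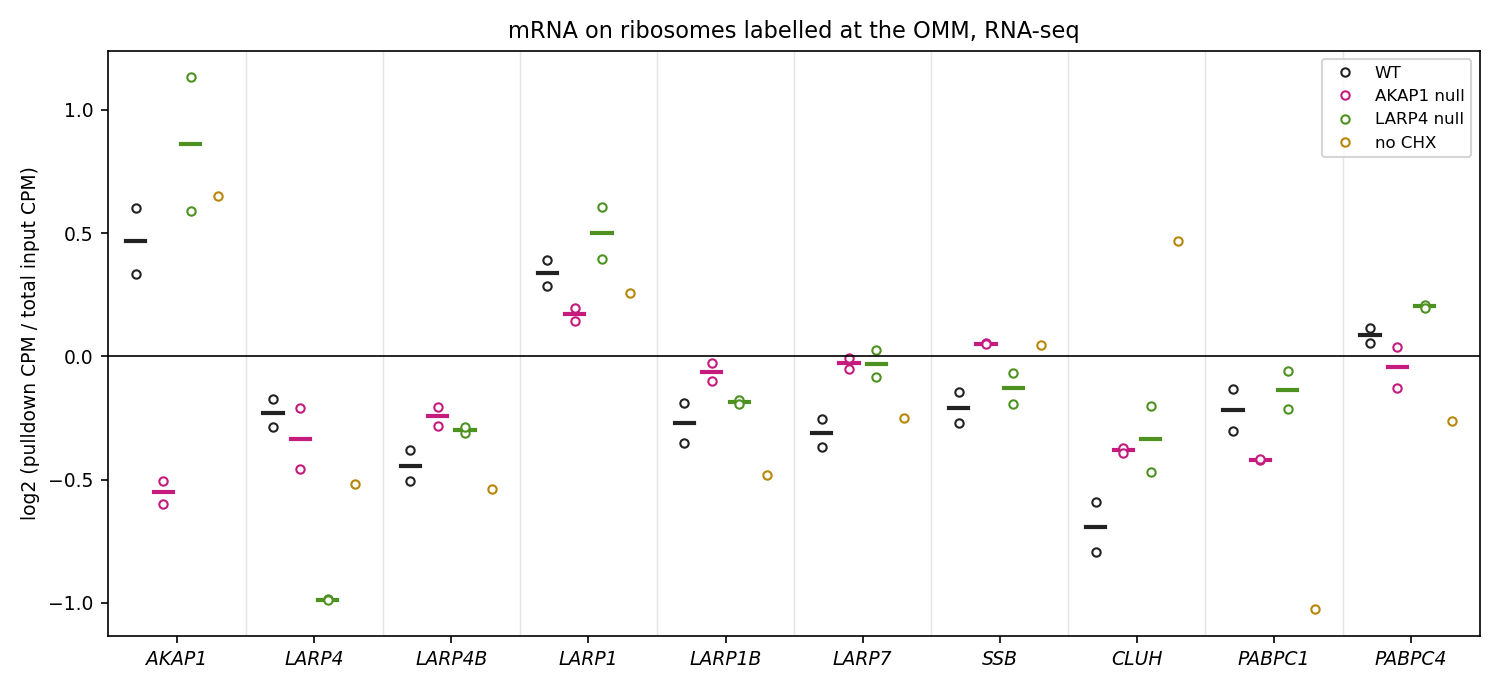
Log2 ratio of OMM pulldown to total input CPM of each member by RNA-seq, with 1 point per lysate for WT, AKAP1 null, LARP4 null and noCHX. AKAP1 lies between 0.34 and 1.13 in all lysates but those of AKAP1 null cells (−0.51 and −0.60), and LARP4 is lowest in LARP4 null cells (−0.98 and −0.99).

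LARP1 mRNA was the other member enriched in WT, at 0.39 and 0.28 in the 2 lysates and 0.34 in the fit (SE 0.09, edgeR adjusted p = 0.0110), although its footprints were depleted at the OMM. LARP1 lost this call without the first WT lysate (adjusted p = 0.151), without the second (adjusted p = 0.0700) and without the replicate block (adjusted p = 0.149). With AKAP1 this made 2 of 10 members called higher, against 20.2% of genes. In LARP4 null cells LARP1 stood at 0.39 and 0.61 and was called at 0.50, again 2 of 10 members with AKAP1, against 22.8%. LARP1 lost this call too without the replicate block. LARP1 in AKAP1 null cells stood at 0.14 and 0.20 and did not pass (adjusted p = 0.168), and its change from WT was −0.17 (interval −0.47 to 0.13).

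In WT 4 of 10 members were depleted, against 45.6% of genes, namely LARP4B (−0.44), LARP1B (−0.27), LARP7 (−0.31) and CLUH (−0.69), beside a median of −0.28 over all genes. LARP1B and LARP7 lost this call with either WT lysate left out and LARP4B without the second, and LARP1B lost it without the replicate block. Under TMM only CLUH kept this call (−0.40, adjusted p = 0.00524), LARP1B turned to 0.02, and PABPC4 was called higher at 0.38, while all genes split into 4296 higher and 3847 lower in place of 2803 and 6324. CLUH stood at −0.59 and −0.79 in WT and at 0.47 in the noCHX sample, which had no replicate and 1 min of light and whose line the labels do not give.

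In AKAP1 null cells 5 members were depleted, against 28.1% of genes: AKAP1, LARP4 (−0.33), LARP4B (−0.24), CLUH (−0.38) and PABPC1 (−0.42). In LARP4 null cells 3 were, against 30.0%: LARP4 (−0.99), LARP4B (−0.30) and CLUH (−0.33). The edited gene of each line was among its depleted members. The median over all genes was −0.12 and −0.06 in these lines. With either AKAP1 null lysate left out or without the replicate block 0 of the 5 members kept the call in AKAP1 null cells, and the calls lower over all genes fell from 3892 to between 799 and 1566. In LARP4 null cells LARP4 alone kept its call without the block, and CLUH lost its call without the first LARP4 null lysate. Under TMM only AKAP1 (−0.43) kept its call in AKAP1 null cells, and LARP4 (−0.90) kept its call in LARP4 null cells while LARP4B (−0.21) and CLUH (−0.25) did not and PABPC4 was called higher (0.29). The paralog LARP4B differed from WT by 0.20 in AKAP1 null cells (interval −0.07 to 0.47) and by 0.14 in LARP4 null cells (interval −0.13 to 0.42), neither past the test, beside gene medians of 0.19 and 0.17. Both null lines were compared with the same WT lysates.

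PABPC1 mRNA stood at −0.13 and −0.30 in WT, −0.42 and −0.42 in AKAP1 null, −0.21 and −0.06 in LARP4 null cells and −1.02 without cycloheximide, where it ranked above 6.2% of genes instead of 59.6% and 51.8% in WT. PABPC4 stood at 0.12 and 0.05 in WT, and its values in the null lines ran from −0.13 to 0.21. SSB ran from −0.27 to 0.06 over the 6 lysates with cycloheximide. LARP7 stood at −0.25 and −0.37 in WT and between −0.08 and 0.02 in both null lines, without overlap, and its changes of 0.28 in each did not pass (adjusted p = 0.141 and 0.299).

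AKAP1's partners were described from a list of its known binding proteins. Footprints of PRKAR2A and PRKAR2B, the type II regulatory subunits of protein kinase A, were enriched at the OMM. PRKAR2A footprints had a log2 CPM enrichment of 1.48 and 1.599 at the OMM against −1.02 and −0.98 at the ER and 0.07 and 0.15 in the cytosol. PRKAR2B stood at 1.22 and 1.42 at the OMM, −0.64 and −0.47 at the ER and 0.23 and 0.35 in the cytosol. The fitted OMM enrichments were 1.54 for PRKAR2A (adjusted p = 1.54e-09) and 1.32 for PRKAR2B (adjusted p = 3.09e-06), and the ER values were lower than those at the OMM by −2.54 and −1.88.

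Of 7 partners tested at the OMM by ribosome profiling, these 2 were called higher, against 17.0% of all genes, and 3 lower, against 46.1%, the latter being the catalytic subunits PRKACA (−0.62) and PRKACB (−1.001) and the phosphatase subunit PPP1CC (−0.51). PRKAR1B (−0.48, adjusted p = 0.0727) and PPP1CA (0.15, adjusted p = 0.142) did not pass. The entries of PRKAR1A, PPP1CB and MYCBP were merged with overlapping genes and were not analysed here by ribosome profiling.

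By RNA-seq PRKAR2A enrichment was −0.15 and −0.08 in WT, −0.62 and −0.53 in AKAP1 null and 0.28 and 0.25 in LARP4 null cells. PRKAR2B was 0.38 and 0.55, then −0.20 and −0.16, then 0.98 and 0.72. For both subunits the AKAP1 null lysates lay lowest and the LARP4 null lysates highest, with no overlap. Relative to WT PRKAR2A fell by 0.46 on the log2 scale (SE 0.12, edgeR adjusted p = 0.0364) and PRKAR2B fell by 0.65 (SE 0.14, adjusted p = 0.0181) in AKAP1 null cells. Both calls were lost with any 1 WT or AKAP1 null lysate left out, with adjusted p from 0.0975 to 0.321, and without the replicate block, at 0.280 for PRKAR2A and 0.255 for PRKAR2B, with the direction kept. The differences in LARP4 null cells, 0.38 for each, had adjusted p-values of 0.299 and did not pass.

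Of the 11 partners 2 were thus lower in OMM enrichment in AKAP1 null cells, against 7.96% of all genes, and 3 higher, against 6.52%, the latter being PRKACB (0.57, adjusted p = 0.0160), PPP1CB (0.51, adjusted p = 0.0261) and PPP1CC (0.48, adjusted p = 0.0461). These 3 rises were not called under TMM (PRKACB 0.40, PPP1CB 0.34, PPP1CC 0.31), where the falls of PRKAR2A and PRKAR2B were (−0.63 and −0.82). The median over all genes was 0.19 on library totals and 0.02 under TMM, and all genes split into 903 higher and 1103 lower or 285 and 1424. PRKAR1A (0.44), PRKAR1B (0.22), PRKACA (0.21), PTPN21 (0.38), PPP1CA (−0.43) and the MYC-binding protein MYCBP (−0.45) did not pass. In total input edgeR called 0 of the 11 in either null line, and PRKACA in LARP4 null cells (−0.32) was the only one at an unadjusted p under 0.05.

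Among the poly(A)-binding list, PAIP2 and PAIP2B, 2 related inhibitors of PABPC1, were enriched at the OMM, while PABPC4 was depleted there. PAIP2B footprints had a log2 enrichment of 1.88 and 1.82 at the OMM, against −1.04 and −0.86 at the ER and −0.47 and 0.14 in the cytosol. PAIP2 stood at 0.69 and 0.66 at the OMM, −0.73 and −0.50 at the ER and −0.05 and 0.09 in the cytosol. The fitted OMM enrichments of 1.84 and 0.67 were both called, and they were the 2 genes called higher of 6 tested in this list, against 17.0% of all genes, with 2 lower, against 46.1%.

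PAIP2 mRNA had an OMM enrichment of 0.64 and 0.72 in WT, 0.20 and 0.14 in AKAP1 null and 0.51 and 0.26 in LARP4 null cells. PAIP2B stood at −0.03 and 0.07, then −0.55 and −0.63, then −0.12 and −0.24. In AKAP1 null cells PAIP2 fell by 0.51 (SE 0.13, edgeR adjusted p = 0.0365) and PAIP2B fell by 0.61 (SE 0.12, adjusted p = 0.0150) relative to WT, the 2 genes called of 9 tested in this list, against 7.96% of all genes called lower. Both calls were lost with any 1 WT or AKAP1 null lysate left out (adjusted p from 0.0876 to 0.320) and without the replicate block (0.224 for PAIP2 and 0.117 for PAIP2B). PAIP1, which stimulates translation with PABPC1, differed by 0.13 (adjusted p = 0.494) and did not pass.

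LARP6, a La-related protein that binds collagen mRNAs and was described with the family list, was higher at the OMM than in total input. Its footprint log2 enrichment was 0.45 and 0.66 at the OMM, −0.55 and −0.31 at the ER and −0.07 and −0.38 in the cytosol. Its mRNA stood at 0.68 and 0.74 in WT, 0.19 and 0.05 in AKAP1 null and 0.72 and 0.46 in LARP4 null cells. The fall of LARP6 in AKAP1 null cells was −0.59 (SE 0.14, edgeR adjusted p = 0.0274), and it was the 1 gene of 7 called in the LARP family list, against 7.96% of all genes called lower. This call was lost with any 1 WT or AKAP1 null lysate left out (adjusted p from 0.116 to 0.266) and without the replicate block (0.115). LARP6 was also the 1 gene of that list called higher at the OMM by ribosome profiling (0.54, adjusted p = 0.0440), against 17.0% of all genes.

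**Figure D5:**
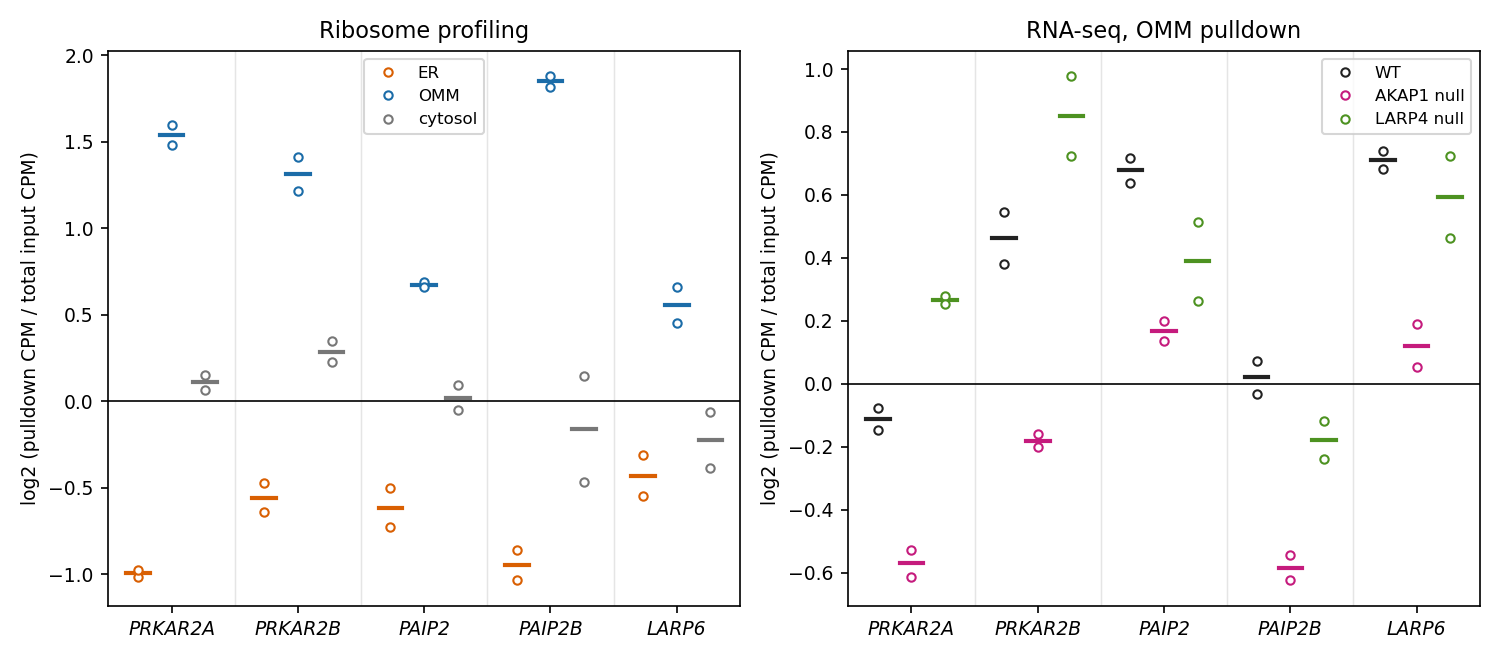
Log2 ratio of pulldown to total input CPM for PRKAR2A, PRKAR2B, PAIP2, PAIP2B and LARP6, with 1 point per lysate by ligase location in ribosome profiling and by genotype in RNA-seq. On this scale all 5 genes have OMM values above zero (0.45 to 1.88) and ER values below zero (−1.04 to −0.31) by ribosome profiling, though under TMM the fitted ER values of PRKAR2B (0.097), PAIP2 (0.041) and LARP6 (0.21) are above zero, and their AKAP1 null points lie below their WT points by RNA-seq, as their choice among the genes called lower there fixed. PRKACB, PPP1CB, PPP1CC and PUM2, called higher there, are not plotted.

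At the OMM by ribosome profiling AKAP1 was the 1 gene higher of 9 AKAP family genes tested, with 0 of 13 deadenylases, 0 of 5 7SK partners and 0 of 11 other RNA-binding proteins called higher, against 17.0% of all genes. Called lower were 6 of the 9 AKAP family genes, 9 of 13 deadenylases, 3 of 5 7SK partners and 9 of 11 other RNA-binding proteins, against 46.1%. Relative to WT, 1 AKAP family gene of 14 had a lower OMM enrichment in AKAP1 null cells, against 7.96% of all genes. It was AKAP1 itself, the gene edited there, and no unedited AKAP family gene was called. Of the deadenylases 0 of 16 were called, and of the 7SK partners 0 of 6. Among 13 other RNA-binding proteins the translational repressor PUM2 was called higher (0.44, edgeR adjusted p = 0.0455), against 6.52% of all genes. That call was lost under TMM (0.27 for PUM2).

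The genes whose enrichment pattern was most like that of AKAP1 were found over the 12 lysates with cycloheximide, among 6424 genes with at least 64 counts in all total inputs. They were COA1, a mitochondrial assembly factor of the respiratory chain, SCPEP1, a serine carboxypeptidase, HACD1 and ALG14, enzymes of the ER membrane, and EMC6, a subunit of the ER membrane insertase. Their root mean square difference from AKAP1 was 0.60 for COA1 and up to 0.67 for EMC6 on the log2 scale. The nearest genes to LARP4 were much closer, from 0.26 for GMPS, an enzyme of guanine nucleotide synthesis, to 0.28 for AZIN1, a regulator of ornithine decarboxylase. These lysates share libraries across all genes and include the lines in which AKAP1 or LARP4 was edited, so likeness is a description. Ribosome profiling entered as ratios of RPKM and RNA-seq as ratios of CPM.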

How the data were processed

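Per the labels and the study's methods, the authors removed rRNA and tRNA reads with Bowtie, aligned footprints to GRCh38, kept unique reads of 27 to 36 nt, and deposited estimated counts and RPKM per gene region. Some entries, 1079 of 58849, joined overlapping genes and held no member. For RNA-seq the authors deposited read counts per gene, with the strand setting not given in the sources used here, so reads of LARP4 and FAM186A, or of SSB and METTL5, which overlap on opposite strands, cannot be told apart. Broken lines of 1 gene, 3 to 7 per table, were dropped.

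Estimated counts were rounded and fitted with edgeR 4.0.16 (quasi-likelihood, two-sided, Benjamini-Hochberg over all genes tested), with a term per lysate, since total input and pulldown came from 1 lysate per the methods, and a pulldown effect per location or genotype. Library totals set the scale. Total inputs were compared by genotype with TMM. A minimum of 64 counts was used, in both total inputs of a location or as a mean. SE was the log2 change over the root of F. Alternatives were TMM, library totals, DESeq2 1.42.0, other blocks, a minimum of 10, and each replicate left out. On simulated data edgeR recovered 93% of 2-fold OMM enrichments by ribosome profiling, with 4 false calls. For the RNA-seq change of OMM enrichment in AKAP1 null cells it recovered 72% of 2-fold changes, with 12 false calls. The simulated total inputs had 13 false calls. In each simulation every gene started from 1 mean scaled to the library total, without lysate effects or a shift of scale. Only 100 genes were changed at each fold. These false calls therefore do not bound those of the real fits, whose calls moved with the scaling and the block. Depth limits the precision and intervals cover these lysates only.

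Members and gene lists were chosen with earlier results of these data known. Named genes were all members, AKAP1's binding partners, per list at most 5 genes with the largest change among those called in total input or in the change of OMM enrichment, and the 5 genes most like AKAP1 and LARP4 in pattern. PAIP1 and IRAK1BP1 were named outside this rule, after their values were seen.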

Additional observations from a re-analysis of the deposited data

Results flagged for a closer look

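Several differences between locations or genotypes passed a test of the difference itself in the edgeR fit. Between the ER and the OMM (ER minus OMM, log2) these were AKAP1 at −0.49, LARP1 at −0.37, PABPC1 at −0.65, PRKAR2A at −2.54, PRKAR2B at −1.88, PAIP2 at −1.29, PAIP2B at −2.79 and LARP6 at −0.99. The first 3 were not called under TMM and the others were.

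Between the OMM and the cytosol AKAP1 differed by 2.29, LARP4 by −1.24, LARP4B by −1.01, LARP1 by −1.18, LARP1B by −0.95, SSB by −0.95, CLUH by −0.87 and PABPC4 by −0.98. Without the replicate block only AKAP1 kept its call there, and LARP1B lost its call by DESeq2. Calls over all genes fell as well without the block, from 1069 higher and 2583 lower to 202 and 54. Between the ER and the cytosol AKAP1 differed by 1.80, LARP4 by −1.49, LARP4B by −1.32, LARP1 by −1.55, LARP1B by −0.88, SSB by −0.91, CLUH by −1.25, PABPC1 by −0.82 and PABPC4 by −1.36. Of the ER differences those of LARP1B, SSB and PABPC1 were not called under TMM, by DESeq2 or without the replicate block.

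Between AKAP1 null and WT cells the change of OMM enrichment by RNA-seq was −1.02 for AKAP1, −0.46 for PRKAR2A, −0.65 for PRKAR2B, −0.59 for LARP6, −0.61 for PAIP2B and −0.51 for PAIP2, and 0.57 for PRKACB, 0.51 for PPP1CB, 0.48 for PPP1CC and 0.44 for PUM2. The last 4 were not called under TMM, and none of the 10 was called with any 1 WT or AKAP1 null lysate left out or without the replicate block.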

How the results depend on the processing

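Counts of members called changed as follows. At the ER the 10 members fell to 6 under TMM and 6 by DESeq2. For the ER against the cytosol the 9 fell to 6 under TMM, by DESeq2 and without the replicate block. At the OMM by ribosome profiling DESeq2 called PABPC1 in place of PABPC4. In the cytosol the 1 call became 0 by DESeq2, and 6 on the totals behind the deposited RPKM, a scale chosen after seeing the data. For the ER against the OMM the 3 calls became 0 under TMM, by DESeq2 and on the deposited RPKM totals, and 1 with any 1 lysate left out. For OMM RNA in WT the 6 became 4 under TMM and by DESeq2, and in AKAP1 null cells the 5 became 1 under TMM and 3 by DESeq2. DESeq2 called 1 member in place of 0 for the OMM enrichment in LARP4 null cells and for the total input of AKAP1 null cells.

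With a lysate left out, members called ranged from 1 to 3 in place of 6 for OMM RNA in WT, from 0 to 0 in place of 5 in AKAP1 null cells and in place of 1 for AKAP1 null against WT, from 0 to 4 in place of 0 for LARP4 null against WT, and from 0 to 0 in place of 1 for LARP4 null total input. Fewer samples were fitted there.

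Without the replicate block that pairs pulldown with total input, members called fell from 10 to 8 at the ER, where SSB and PABPC1 were lost, from 8 to 5 at the OMM by ribosome profiling, from 1 to 0 in the cytosol, from 3 to 0 for the ER against the OMM, from 8 to 1 for the OMM against the cytosol, from 6 to 3 for OMM RNA in WT, from 5 to 0 in AKAP1 null, from 5 to 1 in LARP4 null cells and from 1 to 0 for AKAP1 null against WT. Calls over all genes fell as well. They went from 6786 to 4559 at the ER, 4246 to 1537 at the OMM and 572 to 27 in the cytosol. Between locations they went from 3325 to 1348 for the ER against the OMM and 3652 to 256 for the OMM against the cytosol. By RNA-seq they went from 9127 to 6078 in WT, 5822 to 2198 in AKAP1 null and 7312 to 3667 in LARP4 null cells. For AKAP1 null against WT they went from 2006 to 429. In total inputs, same-numbered lysates of different lines deviated together with r of 0.342, 0.209 and −0.05 across genes, so numbers were not taken as pairs. With a replicate block the count in LARP4 null total input was 0 in place of 1.

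At the ER the direction turned under TMM and by DESeq2 for PABPC1 (0.25 and 0.23), PRKAR2B (0.097 and 0.066), PAIP2 (0.041 and 0.008) and LARP6 (0.21 and 0.19), and for OMM RNA in WT for LARP1B (0.024 and 0.014). The causes were not tested. Depth limits AKAP1's 5′ UTR values, and LARP7 at the OMM, with 10 coding footprints in the first pulldown. Each null line was 1 clone, so clone and genotype cannot be told apart.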
